A study of Mus musculus with 12 samples.

Results

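Immediate early genes are the first genes that a cell transcribes when it is stimulated or stressed. The members described here are 10 of them, Fos, Jun, Junb, Atf3, Egr1, Klf2, Klf6, Ier2, Dusp1 and Zfp36, each found by its gene name on 1 of the 31340 gene rows of the tables. Their mRNA was measured by RNA-seq in cells sorted as hematopoietic stem cells (HSCs) from the bone marrow (BM) of wild-type (WT) mice. Per the study's methods the sort gate was lineage negative, Sca-1 and c-Kit positive, Flt3 and CD34 negative, and IR stands for whole-body ionizing radiation. The 12 libraries fell into 4 groups of 3, namely Ctrl, IR, Ab_IR and L_IR, and the labels give the same tissue, cell type and genotype for all of them. Cells of the irradiated groups were taken 3 days after IR, and the labels do not say what Ab and L stand for, so both names are used as given. The study's methods describe its mice as age-matched without giving an age, and give male sex for transgenic lines and their littermates, not separately for the WT mice used here. It is not said whether the libraries of a group came from separate animals, so p-values measure the spread between these libraries only.

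Immediate early genes as a class are known to share a way of being controlled. Their promoters typically hold sites for factors that are already present in a resting cell. These are chiefly serum response factor with its ternary complex partners and the cAMP response element binding protein. Mitogen-activated protein (MAP) kinases switch these factors on within minutes. The proteins then act as transcription factors (FOS, JUN, JUNB, ATF3, EGR1, KLF2 and KLF6), as brakes on the kinases (DUSP1) or as agents of mRNA decay (ZFP36), and their own mRNAs are short-lived. The same genes are also known to be induced while tissue is dissociated and cells are sorted, so their level in sorted cells can reflect handling as well as the state in the animal.

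Promoter letters are shown for 4 of the genes, namely Fos, Dusp1, Atf3 and Klf2, and each of these holds a searched motif. Fos, Dusp1 and Atf3 hold the core of the cAMP response element. Fos and Dusp1 share their order of groups with Klf6, whose window holds no searched motif, whereas Atf3 was lowest in IR. Klf2, which holds another motif, was lowest in L_IR. Zfp36 holds some too, but its window lies in an annotated exon and is not shown. They are the bases just upstream of the start site in RefSeq, build GRCm38.p6, 5′ to 3′ on the strand of the gene, with motif matches in capitals. For Fos the window is chr12:85473640-85473889 on the plus strand, for Dusp1 chr17:26508520-26508722 on the minus strand, for Atf3 chr1:191183334-191183583 on the minus strand, and for Klf2 chr8:72318812-72319061 on the plus strand. That of Dusp1 is 203 bases long, after leaving out 47 bases that GENCODE M21 places in an exon. The others hold 250 bases. GENCODE M21 places the last 29 of Klf2 and the last 7 of Atf3 in an exon, and 0 of Fos. It also extends Dusp1 and Atf3 farther upstream, to 26562128 and 191218039, so both windows lie inside the annotated genes.
Fos: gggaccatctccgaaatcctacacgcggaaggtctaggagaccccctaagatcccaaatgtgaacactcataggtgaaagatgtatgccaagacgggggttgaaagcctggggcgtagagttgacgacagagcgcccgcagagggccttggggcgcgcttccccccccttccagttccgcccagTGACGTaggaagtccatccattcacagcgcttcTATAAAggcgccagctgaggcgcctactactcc
Dusp1: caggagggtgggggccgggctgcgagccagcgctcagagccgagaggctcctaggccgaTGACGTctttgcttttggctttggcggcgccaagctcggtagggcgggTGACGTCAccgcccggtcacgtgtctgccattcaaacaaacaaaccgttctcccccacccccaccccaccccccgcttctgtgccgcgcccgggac
Atf3: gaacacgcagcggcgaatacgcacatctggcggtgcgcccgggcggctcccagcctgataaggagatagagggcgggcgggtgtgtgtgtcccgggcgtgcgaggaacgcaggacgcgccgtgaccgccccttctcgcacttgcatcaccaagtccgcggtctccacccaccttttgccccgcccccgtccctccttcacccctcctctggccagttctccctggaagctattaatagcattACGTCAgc
Klf2: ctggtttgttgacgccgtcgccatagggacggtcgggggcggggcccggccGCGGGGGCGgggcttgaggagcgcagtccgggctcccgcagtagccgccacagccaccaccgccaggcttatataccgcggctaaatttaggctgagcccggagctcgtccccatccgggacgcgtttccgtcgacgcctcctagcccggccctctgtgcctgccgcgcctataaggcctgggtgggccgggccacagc

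RefSeq windows of 250 upstream bases were at hand for 8 of the 10 genes and for 32851 genes or transcripts in all. Both strands were searched. The cAMP response element TGACGTCA was found in Dusp1 alone among the 8, and in 1.55% of all windows. Its core TGACGT, which the full element contains on either strand, was found in Fos, Dusp1 and Atf3, and in 6.47% of all windows. The core of Fos lies 66 to 61 bases before the start, and the TATA box TATAAA of the same promoter, present in 12.4% of all windows, 33 to 28 bases before it. In Atf3 the core lies 8 to 3 bases before the RefSeq start, read on the opposite strand, and so mostly within the bases that GENCODE M21 places in an exon. The site of EGR factors, GCGTGGGCG or GCGGGGGCG, was found in Klf2 and Zfp36 and in 3.06% of all windows, and the CArG box of serum response factor in Zfp36 and in 1.47%. The AP-1 site, TGACTCA or TGAGTCA, was found in 0 of the 8 and in 4.46% of all windows. Sites farther upstream than 250 bases were not searched, so a motif not found here can still lie beyond the window. These matches are descriptions of the letters only.

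The transcripts had few exons. With the transcript of the longest coding sequence in GENCODE M21, the 10 genes had 1 to 4 exons, as did 19.6% of 10333 expressed coding genes with a 3′ UTR. Their lengths ran from 1522 bases for Ier2 to 4484 for Egr1, with a median of 2049 against 2863 in those coding genes, and Egr1, Klf6 (4225) and Jun (3189) were above the latter. The 3′ UTR of Klf6 had 3111 bases, against a median of 919 in the coding genes. The AU-rich letters TATTTAT, a core recognized by ZFP36 proteins, stood in the 3′ UTR of 7 of the 10 and of 26.8% of the expressed coding genes. Zfp36 itself and Dusp1 each held 3 copies. Junb, Egr1 and Ier2 held 0.

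Facts of the whole series bear on every value below. Values come without a unit and were read as FPKM, which scale fragments by gene length and by library size. Comparisons between levels of different genes rest on that reading. The values carry no read counts and the depth is unknown. Ctrl replicate 1 was unlike the rest, since 44.1% of its gene rows were 0, and the remaining 11 libraries had 24.7% to 27.3% such rows. The heart hormone gene Nppa reached 51.2 to 63.9 FPKM in all IR libraries and in replicates 2 and 3 of Ctrl, and 0 to 0.26 FPKM elsewhere. This split was treated as a possible batch. It coincides with IR against Ab_IR or L_IR except through Ctrl replicate 1. Of the 12 markers taken for the HSC label, Mecom, Fgd5, Hoxb5 and Slamf1 stayed at or under 0.88 FPKM in all libraries, so these defining markers were nearly absent, whereas Kit was listed at 6.70 to 25.5 FPKM.

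All 10 genes passed the filter on low values in every comparison. They were abundant, with Fos the highest in each group and Atf3 the lowest. Fos ranked 85th among all genes by its mean in Ctrl and 206th in L_IR, and Atf3 ranked 3089th in Ctrl and 6874th in IR. Their summed level was 1757 ± 119 FPKM (SD, n = 3) in Ctrl, 1131 ± 13.8 FPKM in IR, 1532 ± 44.0 FPKM in Ab_IR and 1136 ± 33.9 FPKM in L_IR. The similar sums of IR and L_IR hide different genes. Junb, Egr1, Ier2, Atf3 and Zfp36 had their lowest mean in IR, and Fos, Jun, Dusp1, Klf2 and Klf6 had theirs in L_IR. Replicates of a group were close, with a median coefficient of variation over the genes of 2.33% in IR, 2.87% in L_IR, 6.0% in Ab_IR and 11.3% in Ctrl.

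**Figure D1:**
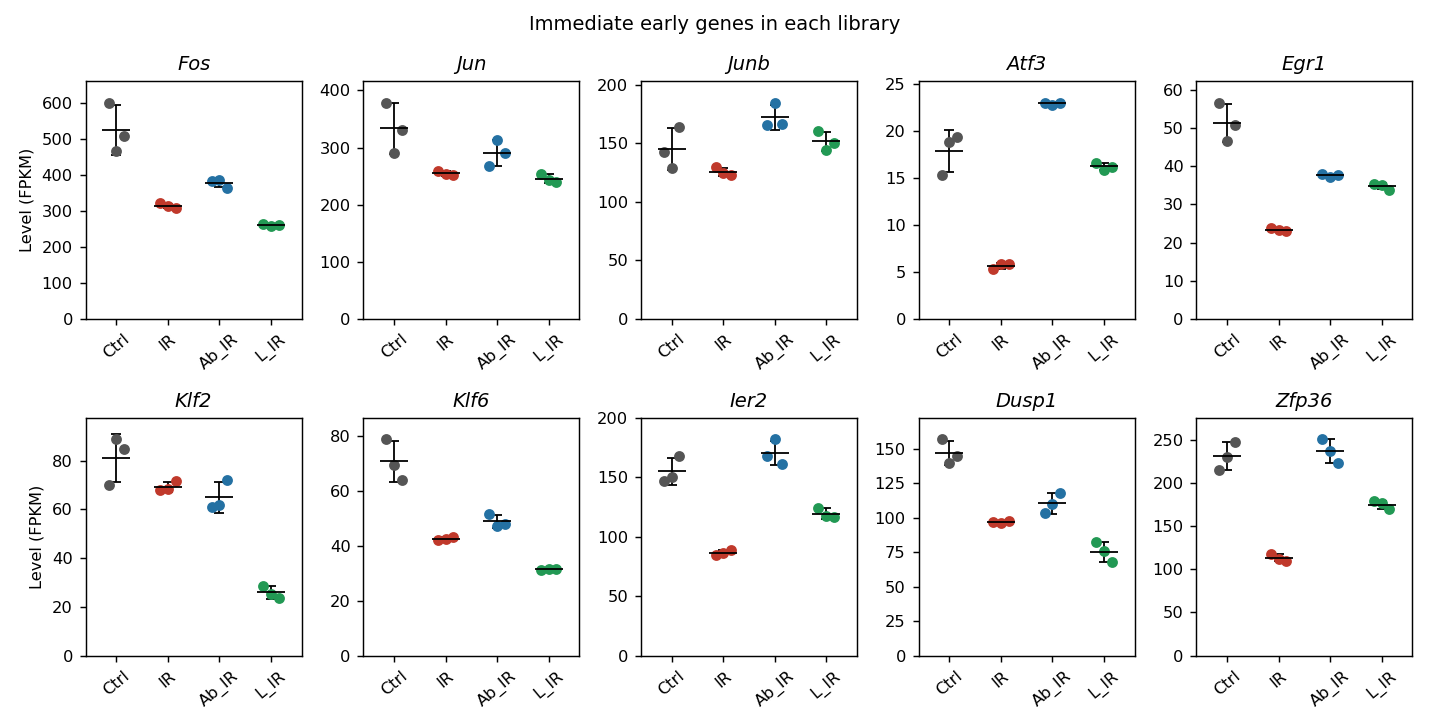
Level in FPKM of each gene in each of the 12 libraries (points, replicates 1 to 3 from left to right), with the mean and SD of the 3 libraries of a group (bars); all axes start at 0. Atf3 lies at 5.26 to 5.85 FPKM in IR and at 15.3 to 23.0 FPKM elsewhere, and Klf2 at 23.6 to 28.7 FPKM in L_IR and at 60.8 to 88.7 FPKM elsewhere.

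The AP-1 factors come first. FOS and the JUN proteins pair up to form AP-1, which binds the AP-1 site and drives genes of proliferation and stress. Fos (chromosome 12, 85473890 to 85477273, plus strand, GENCODE M21 on GRCm38, as for all gene positions below) was listed at 600, 465 and 508 FPKM in Ctrl replicates 1 to 3. It was listed at 320, 312 and 307 FPKM in IR, at 382, 386 and 364 FPKM in Ab_IR, and at 263, 259 and 260 FPKM in L_IR. The 4 groups did not overlap, in the order Ctrl, Ab_IR, IR and L_IR. The log2 fold change was -0.73 (SE 0.105, adjusted p 0.00228) in IR against Ctrl, 0.27 (SE 0.0370, adjusted p 4.76e-04) in Ab_IR against IR and -0.26 (SE 0.0233, adjusted p 6.70e-05) in L_IR against IR. Adjusted p-values of genes here and below are limma's, over all genes tested, and fold changes are taken on log2(FPKM + 1), where the added 1 shrinks the changes of weakly expressed genes.

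Jun (chromosome 4, 95049034 to 95052222, minus strand), the main partner of FOS, varied less between groups. Its levels were 379, 290 and 331 FPKM in Ctrl, 260, 254 and 251 FPKM in IR, 267, 314 and 290 FPKM in Ab_IR, and 254, 243 and 240 FPKM in L_IR. Ctrl overlapped with Ab_IR, and L_IR with IR. Jun differed by -0.38 on the log2 scale between IR and Ctrl (SE 0.105, adjusted p 0.0287), and no longer passed without Ctrl replicate 3 or without any 1 of the IR libraries. In L_IR against IR the difference was -0.05 (SE 0.0290, adjusted p 0.142).

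Junb (chromosome 8, 84974484 to 84978718, minus strand) encodes a JUN protein that can also restrain AP-1. It was listed at 143, 129 and 164 FPKM in Ctrl, at 129, 124 and 123 FPKM in IR, at 165, 185 and 166 FPKM in Ab_IR, and at 160, 145 and 151 FPKM in L_IR. The ranges of IR and Ctrl overlapped, and the difference of -0.20 (SE 0.0964) had an adjusted p of 0.140. All Ab_IR and L_IR libraries lay above all IR libraries. Junb was higher than in IR by 0.45 in Ab_IR (SE 0.0504, adjusted p 1.61e-04) and by 0.27 in L_IR (SE 0.0415, adjusted p 0.00104).

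Atf3 (chromosome 1, 191170296 to 191218039, minus strand), a stress-induced relative that often represses its targets, had the largest log2 fold changes of the 10 genes in IR against Ctrl and in Ab_IR against IR. Its levels were 15.3, 18.9 and 19.4 FPKM in Ctrl, 5.26, 5.85 and 5.80 FPKM in IR, 23.0, 22.8 and 23.0 FPKM in Ab_IR, and 16.6, 15.9 and 16.2 FPKM in L_IR. IR thus held 31.6% of the Ctrl mean and Ab_IR 128%. The log2 fold change was -1.50 in IR against Ctrl (SE 0.102, adjusted p 1.28e-04), 1.85 in Ab_IR against IR (SE 0.0460, adjusted p 1.52e-07) and 1.38 in L_IR against IR (SE 0.0444, adjusted p 6.73e-07). L_IR lay within the Ctrl range, with a difference of -0.13 (SE 0.0968, adjusted p 0.472).

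The zinc finger factors were not alike. Egr1 (chromosome 18, 34859823 to 34864984, plus strand), an activator whose loss is known to release HSCs from quiescence, was listed at 56.7, 46.5 and 50.8 FPKM in Ctrl and at 23.7, 23.3 and 23.1 FPKM in IR. It stood at 37.9, 37.1 and 37.8 FPKM in Ab_IR and at 35.3, 35.2 and 33.8 FPKM in L_IR. Each of these groups was apart from the others, and both groups with an added label lay between IR and Ctrl. Egr1 fell by 1.098 on the log2 scale in IR (SE 0.0819, adjusted p 1.77e-04). Against IR it was higher by 0.66 in Ab_IR (SE 0.0318, adjusted p 2.60e-06) and by 0.55 in L_IR (SE 0.0277, adjusted p 4.48e-06).

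Klf2 (chromosome 8, 72319033 to 72321656, plus strand), a factor of quiescence and of migration in lymphocytes and endothelium, followed another pattern. It was listed at 70.0, 88.7 and 84.9 FPKM in Ctrl, at 68.0, 68.3 and 71.6 FPKM in IR, and at 60.8, 61.7 and 72.2 FPKM in Ab_IR. These 3 groups overlapped, while L_IR stood far below them at 28.7, 25.5 and 23.6 FPKM, or 31.9% of the Ctrl mean. The difference of L_IR was -1.39 from IR (SE 0.0658, adjusted p 3.55e-06), -1.61 from Ctrl (SE 0.115, adjusted p 4.82e-04), and Ab_IR lay 1.29 above L_IR (SE 0.0878, adjusted p 9.32e-05). IR against Ctrl gave -0.22 (SE 0.0986, adjusted p 0.121) and Ab_IR against IR -0.10 (SE 0.0671, adjusted p 0.232).

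Klf6 (chromosome 13, 5861482 to 5870394, plus strand), a relative with roles in growth arrest and myeloid cells, was listed at 78.9, 69.7 and 64.2 FPKM in Ctrl and at 42.0, 42.8 and 43.3 FPKM in IR. It stood at 51.9, 47.3 and 47.9 FPKM in Ab_IR and at 31.1, 31.8 and 31.7 FPKM in L_IR. The order was that of Fos, with no overlap between groups. The log2 fold change was -0.71 in IR against Ctrl (SE 0.0852, adjusted p 0.00113), 0.19 in Ab_IR against IR (SE 0.0431, adjusted p 0.00524) and -0.43 in L_IR against IR (SE 0.0239, adjusted p 7.60e-06). L_IR was below Ctrl by -1.14 (SE 0.0860, adjusted p 5.79e-04).

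Ier2 (chromosome 8, 84661331 to 84662852, minus strand) has a single exon and encodes a small nuclear protein. Its levels were 147, 150 and 168 FPKM in Ctrl, 84.4, 86.4 and 88.9 FPKM in IR, 168, 182 and 162 FPKM in Ab_IR, and 125, 118 and 116 FPKM in L_IR. Ab_IR overlapped with Ctrl, and L_IR lay between IR and Ctrl. Between IR and Ctrl the log2 fold change of Ier2 was -0.83 (SE 0.0724, adjusted p 3.19e-04). Compared with IR, Ier2 was higher by 0.97 in Ab_IR (SE 0.0496, adjusted p 3.57e-06) and by 0.46 in L_IR (SE 0.0341, adjusted p 2.84e-05).

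Dusp1 (chromosome 17, 26505590 to 26562128, minus strand) encodes a phosphatase that switches off p38, JNK and ERK kinases, and so belongs to the feedback arm. It was listed at 157, 140 and 145 FPKM in Ctrl, at 97.1, 96.3 and 97.2 FPKM in IR, at 103, 110 and 118 FPKM in Ab_IR, and at 82.2, 76.2 and 67.5 FPKM in L_IR. Dusp1 kept the order of Fos and Klf6 with no overlap between groups. The log2 fold change was -0.60 in IR against Ctrl (SE 0.0650, adjusted p 7.87e-04), 0.18 in Ab_IR against IR (SE 0.0507, adjusted p 0.0141) and -0.36 in L_IR against IR (SE 0.0652, adjusted p 0.00223).

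Zfp36 (chromosome 7, 28376784 to 28380253, minus strand) encodes tristetraprolin, which binds AU-rich elements and brings on mRNA decay. Its levels were 215, 229 and 248 FPKM in Ctrl, 117, 112 and 110 FPKM in IR, 250, 237 and 223 FPKM in Ab_IR, and 179, 176 and 170 FPKM in L_IR. Ctrl and Ab_IR overlapped, and IR held 49.1% of the Ctrl mean. The log2 fold change was -1.02 in IR against Ctrl (SE 0.0741, adjusted p 1.65e-04), 1.06 in Ab_IR against IR (SE 0.0504, adjusted p 2.56e-06) and 0.62 in L_IR against IR (SE 0.0330, adjusted p 5.86e-06). In GENCODE M21, Zfp36 overlaps an antisense gene (Gm44710), as Jun does (Junos), and Junb and Dusp1 overlap the coding genes Prdx2 and Ergic1 of the other strand. Atf3 overlaps Gm24748 and Dusp1 the pseudogene Gm8225, also of the other strand. The kit keeps the strand, but whether the counting used it is not given in the sources used here, so reads of these pairs may be mixed. Dusp1 also overlaps AC122252.4, a pseudogene, and AC122252.1, a sense intronic gene, on its own strand, which stranded counting would not separate.

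The comparison of IR with Ctrl asks what had changed in the sorted cells 3 days after IR. Of the 10 genes, 8 were lower in IR at an adjusted p under 0.05 and 0 were higher, where 25.5% of the 12072 genes tested were lower and 17.5% higher. Atf3, Egr1 and Zfp36 also passed a log2 fold change of 1 in size, and will be said to be called. The background of called genes was 4.57% lower and 3.03% higher. The median log2 fold change was -0.72 over the 10 genes and -0.05 over all genes tested. Zfp36 was near the fold threshold and lost the call without Ctrl replicate 3 (-0.97) or IR replicate 3 (-0.997) and with scaling by the median ratio (-0.96), while Ier2 was called with quantile normalization (-1.008), where all 10 genes passed as lower. Klf2 passed the adjusted p without Ctrl replicate 1, that is within the libraries that carry heart transcripts (-0.32, adjusted p 0.00141), as Junb did without Ctrl replicate 2.

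The comparison of Ab_IR with IR asks what the added label Ab changes in irradiated cells. Of the 10 genes, 9 were higher in Ab_IR at an adjusted p under 0.05 and 0 were lower, where 39.4% of the 12067 genes tested were higher and 29.4% lower. Atf3 and Zfp36 were called higher, against 5.11% of all genes called higher and 2.46% called lower, and the median log2 fold change was 0.36 over the 10 genes and 0.06 over all genes tested. With scaling by the median ratio Zfp36 (0.9996) was no longer called. With that scaling, or with all 12 libraries in one fit, Jun and Dusp1 no longer passed, leaving 7 genes. Jun alone was lost with quantile normalization and with no filter on low values. When the split by heart transcripts entered the fit as a term, estimated from Ctrl replicate 1 alone against its group, 5 genes passed. Fos (-0.03), Jun (-0.10) and Klf6 (-0.04) then changed sign without passing and Dusp1 (0.04) no longer passed, while Atf3 stood at 2.15, Zfp36 at 1.201, Ier2 at 1.08, Junb at 0.48 and Egr1 at 0.45. The small rises of Fos, Jun, Klf6 and Dusp1 and the split cannot be told apart. Jun also no longer passed without IR replicate 2, IR replicate 3 or Ab_IR replicate 3. Without the last of these, Ier2 was called (1.006) and Klf2 passed as lower.

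The comparison of L_IR with IR asks the same of the label L, and it shares the IR libraries with the one before. Here 5 genes were higher (Atf3, Zfp36, Egr1, Ier2 and Junb) and 4 lower (Klf2, Klf6, Dusp1 and Fos) at an adjusted p under 0.05, where 40.8% of the 12163 genes tested were higher and 26.0% lower. Atf3 was called higher and Klf2 lower, against 4.09% and 2.13% of all genes. The median log2 fold change was 0.11 over the 10 genes and 0.07 over all genes tested. When that split was a term of the fit, the falls were -1.08 for Klf2, -0.66 for Klf6, -0.57 for Fos and -0.50 for Dusp1, Jun passed as lower (-0.34, adjusted p 0.0241) and Junb no longer passed (0.30, adjusted p 0.101).

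**Figure D2:**
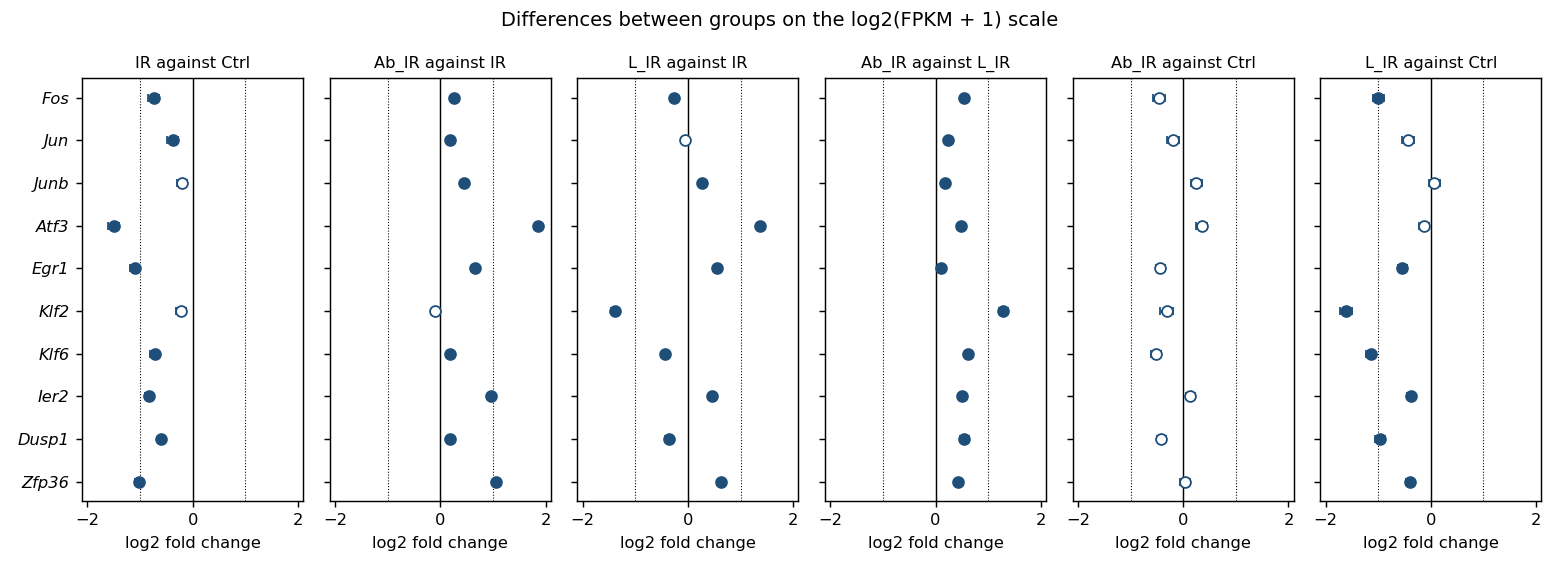
Log2 fold change of each gene on the log2(FPKM + 1) scale in 6 comparisons, the first group named against the second, with the SE as bars; filled points passed an adjusted p of 0.05, open points did not, and dotted lines stand at -1 and 1. In IR against Ctrl all points lie to the left, with 8 filled, in Ab_IR against IR 9 filled points lie to the right, and in L_IR against IR 5 filled points lie to the right and 4 to the left.

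Set against each other, Ab_IR and L_IR have the possible batch in common. All 10 genes were higher in Ab_IR at an adjusted p under 0.05, where 18.2% of the 12194 genes tested were higher and 19.8% lower. Klf2 was the member called, against 0.295% of all genes called higher and 0.238% called lower. After Klf2 (1.29) came Klf6 (0.62), Dusp1 (0.55), Fos (0.53), Ier2 (0.51), Atf3 (0.48), Zfp36 (0.43), Jun (0.24), Junb (0.18) and Egr1 (0.11). The adjusted p of Egr1 (0.0438) and of Junb (0.0458) lie near the threshold. With all 12 libraries in one fit or with no filter on low values, Jun, Junb and Egr1 no longer passed, leaving 7 genes. Limma without trend lost Junb and Egr1, and quantile normalization lost Egr1. Without any single library Egr1 no longer passed, Junb passed only without Ab_IR replicate 1 or L_IR replicate 1, and Jun failed without L_IR replicate 2 or 3.

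Against Ctrl, the added labels left different remainders. In Ab_IR, 0 of the 10 genes passed limma's adjusted p, where 0.651% of the 12134 genes tested passed as lower and 1.45% as higher, and 0.231% and 0.692% were called. At an unadjusted p under 0.05, 5 of the 10 were lower and 1 higher, against 11.4% and 9.45% of all genes tested. The nearest were Klf6 (-0.52, SE 0.0956, adjusted p 0.0530), Egr1 (-0.43, SE 0.0873, adjusted p 0.0686), Dusp1 (-0.41, SE 0.0859, adjusted p 0.0767) and Fos (-0.47, SE 0.112, adjusted p 0.111). The count of 0 depended on the processing. With all 12 libraries in one fit 6 passed, Atf3 as higher and Fos, Egr1, Dusp1, Klf2 and Klf6 as lower. With quantile normalization Dusp1 and Klf6 passed as lower. Without Ctrl replicate 1, Klf6, Fos, Dusp1, Egr1 and Klf2 passed as lower (-0.44, -0.36, -0.37, -0.36 and -0.42). Ctrl replicate 1 is the only control without heart transcripts, and it is also the library with the most rows at 0. Against that library alone, which has no spread of its own, the values were -0.68 for Klf6, -0.67 for Fos, -0.58 for Egr1, -0.51 for Dusp1, -0.38 for Jun and 0.55 for Atf3. The sign for Zfp36 (0.04) and Ier2 (0.13) turned under quantile normalization.

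In L_IR, 7 of the 10 genes were lower than in Ctrl at an adjusted p under 0.05 and 0 were higher, where 4.08% of the 12251 genes tested were lower and 4.76% higher. Klf2 and Klf6 were called, against 0.620% of all genes called lower and 2.03% called higher. Fos (-0.998) and Dusp1 (-0.96) were just short of the fold threshold, followed by Egr1 (-0.54), Zfp36 (-0.40) and Ier2 (-0.37). Fos was called without Ctrl replicate 2, Ctrl replicate 3 or L_IR replicate 1, and Dusp1 without the last. Without any 1 of the L_IR libraries, 4 genes passed, Egr1, Zfp36 and Ier2 being lost. Zfp36 and Ier2 were also lost without Ctrl replicate 2 or 3. Jun passed without Ctrl replicate 2, and Jun and Atf3 without Ctrl replicate 1, for 9 in all. Against Ctrl replicate 1 alone, with the same limit, the values were -1.40 for Klf2, -1.30 for Klf6, -1.20 for Fos and -1.05 for Dusp1.

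The profiles over the 12 libraries were compared by the root mean square difference of log2(FPKM + 1), each centred on its own mean. Among the members the closest were Fos and Klf6 (0.0904), Ier2 and Zfp36 (0.0914) and Fos and Dusp1 (0.103), and the farthest were Atf3 and Klf2 (1.01). Among 5025 genes averaging 10 FPKM or more, those nearest to the mean profile of the 10 were Fbxo5, a mitotic inhibitor gene (0.0813), Btg2, an antiproliferative early response gene (0.0905), Grina (0.106), Clec12a, a myeloid receptor gene (0.110), and Cdc25b, a cell cycle phosphatase gene (0.121). Btg2 averaged 47.6 FPKM in Ctrl and 43.1 in Ab_IR, and 25.9 in IR and 31.0 in L_IR. Single members had as nearest genes Ddit4 for Egr1 (0.0820), Cd82 for Ier2 (0.0727), Itga2b for Atf3 (0.0890), Hagh for Zfp36 (0.0596), Mospd3 for Junb (0.0614), Cdc6 for Jun (0.0807) and Rhob for Klf2 (0.294). All genes of a library share its group and its sequencing, and these distances carry no test.

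Related genes were taken from lists by role. The lists are small, and their counts stand beside the shares over all genes given above, 25.5% lower and 17.5% higher in IR against Ctrl, 39.4% higher and 29.4% lower in Ab_IR against IR, and 40.8% higher and 26.0% lower in L_IR against IR. Among 10 other AP-1 and small MAF genes, 7 were tested in IR against Ctrl, of which 3 were higher, 3 lower and 0 called. In L_IR against IR, Jdp2, which encodes a repressor of AP-1, was called lower, from 21.6 to 23.2 FPKM in IR to 9.60 to 10.4 FPKM in L_IR (-1.07, adjusted p 1.69e-06). Its level was similar in Ab_IR, at 9.62 to 11.26 FPKM, though not called against IR, and was 10.17 to 15.23 FPKM in Ctrl. Among 11 other EGR, KLF and NR4A genes and their NAB corepressors, 6 of 8 tested were lower in IR than in Ctrl and 2 higher, with a median of -0.75. Nr4a1, an orphan nuclear receptor gene of the same early response, was listed at 36.4, 37.3 and 39.5 FPKM in Ctrl, at 8.24, 7.22 and 8.12 FPKM in IR, at 29.8, 29.4 and 27.5 FPKM in Ab_IR, and at 19.6, 18.6 and 19.2 FPKM in L_IR. It was called lower in IR than in Ctrl (-2.13, adjusted p 1.23e-05) and, against IR, higher in Ab_IR by 1.75 (adjusted p 5.01e-07) and in L_IR by 1.19 (adjusted p 2.26e-06). Klf4 was called lower in IR than in Ctrl (-1.08, adjusted p 2.18e-04) and higher in Ab_IR than in IR (1.001, adjusted p 1.30e-06).

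Of 34 further early response genes, 32 were tested in IR against Ctrl, and 16 were lower and 8 higher. Called lower were Tnfaip3, an inhibitor of NF-kB (-1.50, adjusted p 7.78e-05), Ier3, a survival gene (-1.32, adjusted p 3.29e-05), Sik1, a kinase gene (-1.10, adjusted p 7.18e-04), and Btg1, an antiproliferative gene (-1.03, adjusted p 5.94e-04). Cebpb (1.39, adjusted p 0.00794) and Cebpd (1.07, adjusted p 0.00244), genes of stress-induced C/EBP factors, were called higher, Cebpb at no more than 4.64 FPKM in any library. Tnfaip3 was listed at 34.8 to 43.2 FPKM in Ctrl, 12.6 to 13.6 FPKM in IR, 34.2 to 37.3 FPKM in Ab_IR and 41.4 to 44.2 FPKM in L_IR. Ier3 was listed at 48.7 to 52.3 FPKM in Ctrl, 18.8 to 20.3 FPKM in IR, 37.1 to 44.3 FPKM in Ab_IR and 22.9 to 24.5 FPKM in L_IR, so that it was still called lower than Ctrl in L_IR (-1.07, adjusted p 2.24e-04). Against IR, 18 of 31 tested were higher and 8 lower in Ab_IR, with Tnfaip3 (1.39), Btg1 (1.33) and Nfkbia (1.003) called higher and Ccn2 (-1.17) lower. In L_IR 13 were higher and 12 lower, with Tnfaip3 (1.65) and Sik1 (1.08) called higher and Cebpd (-1.11), Gadd45g (-1.10), Ccn2 (-1.06) and Sgk1 (-1.03) lower. Ccn2 was low throughout, at 0.22 to 2.14 FPKM, and its higher values were those of the libraries with heart transcripts.

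In the feedback arm, other than Dusp1, 4 of 7 tested phosphatase, Sprouty and Spred genes were lower in IR than in Ctrl and 1 higher. Dusp5, which encodes a nuclear ERK phosphatase, was listed at 20.1, 15.7 and 15.7 FPKM in Ctrl, 5.36, 4.70 and 4.99 FPKM in IR, 23.3, 22.4 and 20.4 FPKM in Ab_IR, and 25.6, 23.9 and 24.1 FPKM in L_IR. It was called lower in IR (-1.59, adjusted p 1.48e-04) and, against IR, higher in Ab_IR by 1.94 (adjusted p 4.73e-07) and in L_IR by 2.09 (adjusted p 1.96e-07). In L_IR it thus stood on the other side of IR from Dusp1. Spry1 was called lower in IR than in Ctrl (-1.01, adjusted p 0.0117) at 0 to 0.77 FPKM, and Dusp4 higher in L_IR against IR by 1.03 (adjusted p 4.25e-05) at no more than 1.93 FPKM.

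In the mRNA decay arm, Zfp36l2, a paralog of Zfp36 that is known to act in early hematopoietic cells, was called lower in IR than in Ctrl (-1.20, adjusted p 1.62e-04) and higher than in IR in Ab_IR (1.12, adjusted p 4.05e-06) and L_IR (1.04, adjusted p 2.32e-06). It was listed at 138 to 169 FPKM in Ctrl, 62.5 to 67.5 FPKM in IR, 133 to 155 FPKM in Ab_IR and 128 to 140 FPKM in L_IR. Of the 9 genes of this list, which holds the CNOT deadenylase subunits as well, 2 were lower and 1 higher in IR. Among 9 cytokine and prostaglandin genes known as AU-rich targets of ZFP36, 6 were tested and 4 were lower in IR and 1 higher. Ccl3 (-1.31, adjusted p 3.17e-05), at 153 to 164 FPKM in Ctrl and 62.2 to 65.6 FPKM in IR, and Il6 (-1.76, adjusted p 3.96e-04), at 4.34 to 6.92 FPKM in Ctrl and 0.86 to 1.12 FPKM in IR, were called lower. Both were called higher than in IR in Ab_IR (1.53 and 1.78) and L_IR (1.06 and 1.58), and Cxcl2 in Ab_IR (1.07). Tnf, a classical target of ZFP36, was the gene higher in IR than in Ctrl, at 10.19 to 11.98 FPKM in IR and 4.74 to 7.48 FPKM in Ctrl (0.78, adjusted p 0.00704), and it was lower than in IR in Ab_IR (-0.52) and L_IR (-0.51), opposite to Il6 and Ccl3.

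Among 5 genes known as KLF2 targets, 3 were tested in IR against Ctrl and 2 were lower. Itgb7, an integrin gene, was called higher than in IR in Ab_IR (1.35, adjusted p 7.92e-07) and L_IR (1.42, adjusted p 7.66e-07), whereas Klf2 was lower in L_IR. The list of 18 upstream kinases and factors, among them Srf, Elk1, Creb1 and the MAP kinases, had 6 higher and 4 lower in IR against Ctrl, 6 higher and 9 lower in Ab_IR against IR, and 6 higher and 10 lower in L_IR against IR, with 0 called in each. Of 8 heat shock genes, 5 were higher and 1 lower in IR against Ctrl. Hspa1a, at 4.63 to 6.19 FPKM in Ctrl and 16.2 to 17.6 FPKM in IR (1.52, adjusted p 1.23e-04), and its near-identical copy Hspa1b (1.25, adjusted p 1.76e-04) share reads, so their single values are uncertain. Both were also called higher than Ctrl in Ab_IR (1.51 and 1.18) and in L_IR (1.43 and 1.17). Hsph1, a cochaperone gene, was called higher in IR than in Ctrl (1.25) and lower than in IR in Ab_IR (-1.26) and L_IR (-1.11).

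**Figure D3:**
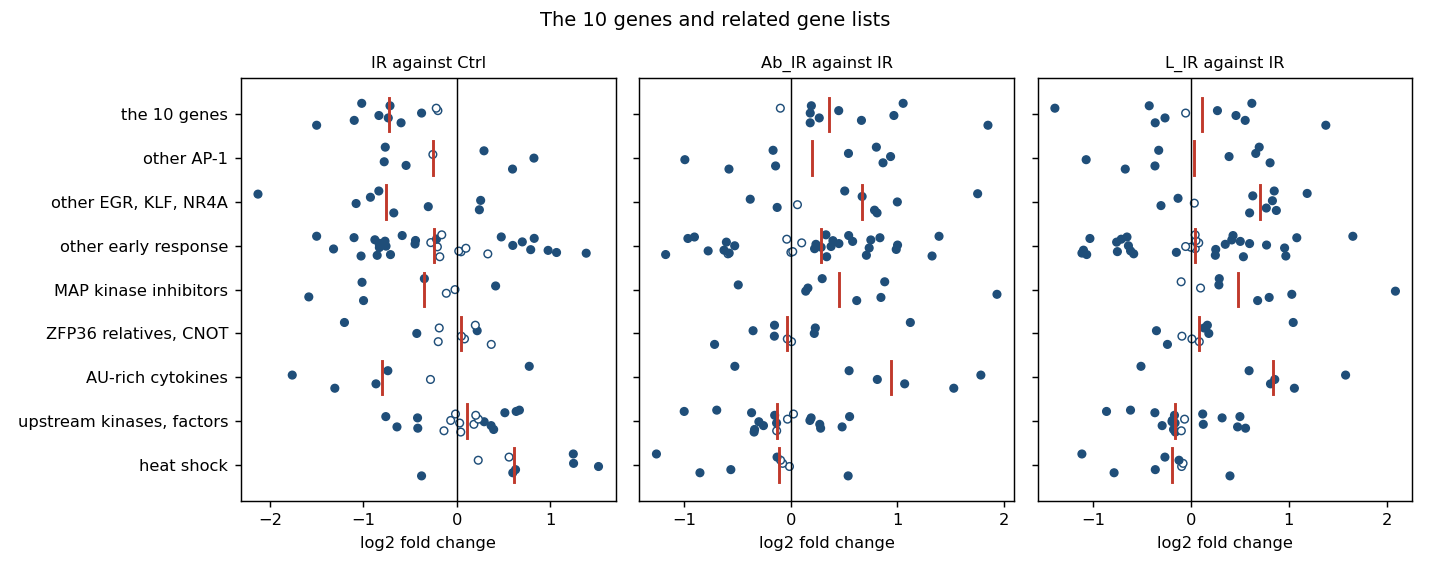
Log2 fold change of the 10 genes and of 8 related lists in IR against Ctrl, Ab_IR against IR and L_IR against IR; each point is a tested gene, filled where it passed an adjusted p of 0.05, and the red line is the median of the list. The median of the 10 genes stands at -0.72, 0.36 and 0.11, and that of the other EGR, KLF and NR4A genes at -0.75, 0.67 and 0.70.

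Markers of other cell types moved along with the groups. In sorted cells in bulk, fewer cells of a type and less RNA per cell cannot be told apart. The summed erythroid markers stood at 2979 to 3622 FPKM in Ctrl, 528.7 to 536 FPKM in IR, 3173 to 3320 FPKM in Ab_IR and 1586 to 1642 FPKM in L_IR, and 9 of 9 were lower in IR than in Ctrl. Of the mast cell, basophil and eosinophil markers 7 of 7 were lower in IR, with sums of 3838 to 5044, 499.2 to 504.5, 5550 to 5715 and 2473 to 2516 FPKM in the same order of groups. Of the megakaryocyte markers 5 of 5 tested were lower in IR, with sums of 51.5 to 67.8, 12.03 to 14.02, 136.5 to 140.4 and 84.2 to 89.7 FPKM. This order of groups, IR the lowest and L_IR below Ab_IR, is also that of the group means of Atf3, Zfp36, Ier2, Egr1 and Junb. Of the monocyte and macrophage markers 5 of 10 were lower in IR and 1 higher, with sums of 270.0 to 291.0, 119.6 to 122.1, 225.0 to 238.4 and 215.3 to 227.5 FPKM. Of the bone and stroma markers 5 of 5 tested were lower, with sums of 163.0 to 204.3, 10.5 to 11.3, 51.15 to 57.18 and 49.72 to 51.81 FPKM. All 5 were also lower than in Ctrl in Ab_IR and in L_IR, 4 of them called in each, and Col3a1, Lepr and Pdgfra stayed at or under 0.61 FPKM throughout.

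The remaining marker lists did not share a single order. The summed neutrophil markers were highest in IR, at 16100 to 16370 FPKM, against 10810 to 12590 FPKM in Ctrl, 11790 to 12370 FPKM in Ab_IR and 8728 to 8941 FPKM in L_IR, and 8 of 9 were lower in L_IR than in IR. In L_IR against IR, Klf2, Klf6, Dusp1 and Fos fell as well, but the other comparisons did not run in parallel. In IR against Ctrl the neutrophil sum was higher while Klf6, Dusp1 and Fos were lower. In Ab_IR against IR that sum was lower while these genes were higher. Klf2 passed in neither of these comparisons. The B and plasma cell markers summed to 9980 to 13200 FPKM in Ctrl, 17240 to 18460 FPKM in IR, 17780 to 18400 FPKM in Ab_IR and 25500 to 26370 FPKM in L_IR, with nearly all of each sum from Igkc. Of the 6 tested in IR against Ctrl, 4 were higher and Cd79b was lower (log2 fold change -0.64, adjusted p 0.00125). Ms4a1 and Pax5 stayed at or under 0.73 FPKM in all libraries. T and NK cell markers summed to 161.8 to 267.9 FPKM in Ctrl, 214.6 to 219.9 FPKM in IR, 278.8 to 287.9 FPKM in Ab_IR and 236.8 to 245.4 FPKM in L_IR, and most of each sum was Nkg7, at 146.6 to 271.1 FPKM. The T cell markers Cd3e, Cd3g, Cd4 and Trac were lower in IR than in Ctrl. Trac, Cd3g and Cd8a were highest in L_IR, with Trac at 4.34 to 6.04 FPKM in Ctrl, 2.05 to 2.72 FPKM in IR, 5.90 to 7.11 FPKM in Ab_IR and 9.69 to 10.7 FPKM in L_IR. Endothelial markers summed to 15.1 to 15.95 FPKM in Ctrl, 8.08 to 8.67 FPKM in IR, 14.91 to 15.64 FPKM in Ab_IR and 15.5 to 16.05 FPKM in L_IR, with Tek and Emcn at or under 0.66 FPKM. The HSC markers summed to 82.9 to 90.0 FPKM in Ctrl, 71.8 to 79.6 FPKM in IR, 79.8 to 86.7 FPKM in Ab_IR and 86.4 to 87.2 FPKM in L_IR. The part of any of these cell types in the levels of the 10 genes was not tested.

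**Figure D4:**
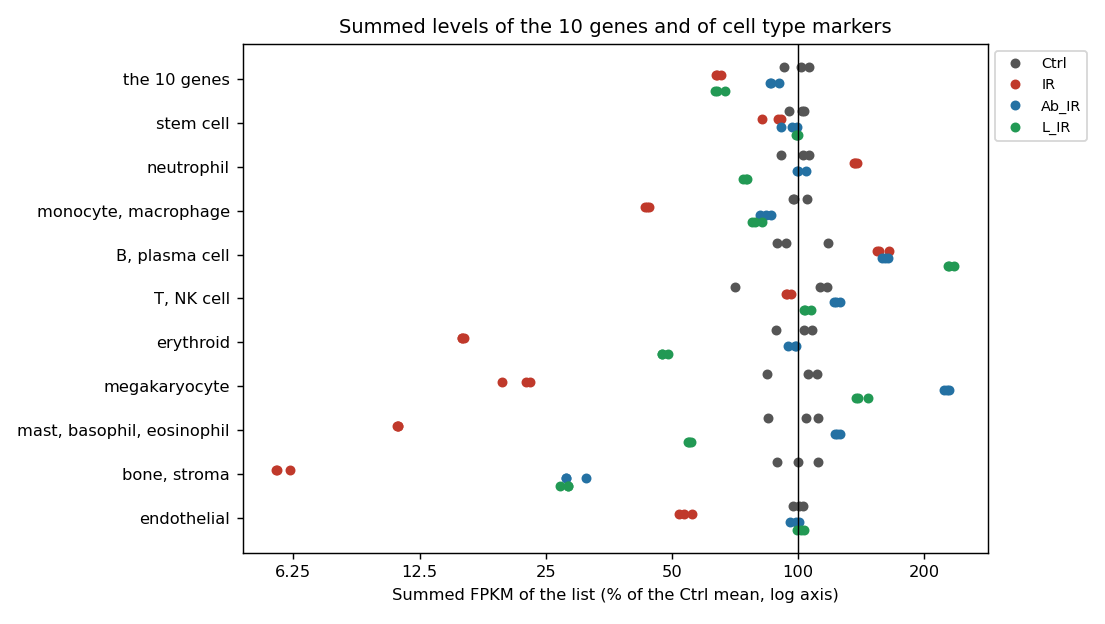
Summed FPKM of the 10 genes and of each cell type marker list in every library, as a percentage of the Ctrl mean of that list, on a logarithmic axis; colours mark the groups and each point is a library. The IR libraries lie lowest for the erythroid, megakaryocyte and mast cell lists and highest for the neutrophil list, and for the 10 genes IR and L_IR lie side by side, below Ab_IR and Ctrl.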

How the data were processed

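The labels put 12 RNA-seq libraries of sorted HSCs into 4 groups of 3, prepared with the RNeasy Micro and TruSeq Stranded mRNA kits. The submitters' processing notes name fastp, HISAT2, StringTie and the builds GRCm38 and mm10, whereas the study's methods name fastp, RSEM and DESeq2, so how the values were made is not settled. The deposited values are given per gene name with 2 decimals and no unit, and were read as FPKM computed by the authors: library sums range from 344338 to 405123, and values times exon length in kb sum to 913577 to 945263. Depth is unknown, so no counting intervals or detection floors are given.

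As FPKM are not counts, limma 3.58.1 in R 4.3.3 (lmFit and trended eBayes) was run on log2(FPKM + 1) of the 6 libraries of each pair of groups, keeping genes that reached 1 FPKM in 3 or more of them. P-values were Benjamini-Hochberg adjusted over all genes tested. Genes passed at an adjusted p under 0.05 and were called if the log2 fold change also exceeded 1 in size. The 10 members, the lists and the motifs were chosen with earlier results of these data known. Named genes were all members, up to 3 called higher and 3 called lower per list and comparison, and the genes nearest in profile. Other genes named (among them the 4th called genes of a list, Tnf, Kit, T, NK and B cell markers and the markers at low values) were chosen after their values were seen. Cell type lists are given by counts and sums. Positions and transcripts are from GENCODE M21, promoter letters from RefSeq on GRCm38.p6. Alternatives were a replicate block, a single fit of all 12 libraries, limma without trend, a pseudocount of 0.1, no filter or a filter at a mean of 10 FPKM, median ratio scaling, quantile normalization, omission of each library, sums over rows of a name, and the split by heart transcripts (Nppa at 10 FPKM or more) as a term. Ctrl replicate 1 as the sole control was added after seeing the data. The fits were tested on simulated data. Python 3.11.15 and matplotlib 3.10.9 made the figures.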

Additional observations from a re-analysis of the deposited data

How the results depend on the processing

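Of 940 values of single genes under the alternatives, 836 kept their direction and their side of the adjusted p of 0.05, 58 no longer passed, 35 came to pass and 11 turned in direction. In IR against Ctrl, leaving out single libraries gave 2 to 3 called members and 7 to 9 past the adjusted p, in Ab_IR against IR 2 to 3 and 8 to 9, in L_IR against IR 2 and 9 to 10, in Ab_IR against L_IR 1 and 7 to 9, in Ab_IR against Ctrl 0 and 0 to 5, and in L_IR against Ctrl 2 to 4 and 4 to 9. In Ab_IR against IR, 1 member was called with scaling by the median ratio, since Zfp36 fell to 0.9996, and 5 passed when the heart transcript split was a term, with Fos at -0.0347, Jun at -0.1038, Klf2 at 0.2099 and Klf6 at -0.0416. In Ab_IR against Ctrl, 1 member passed with a mean of at least 10 FPKM, 2 with quantile normalization, 6 with all 12 libraries in one fit, 5 without Ctrl replicate 1 and 6 with Ctrl replicate 1 as the sole control. There Zfp36 ranged up to 0.089 (without Ctrl replicate 3) and turned to -0.2099 with quantile normalization, -0.0114 without Ctrl replicate 1 and -0.0039 without Ab_IR replicate 1, and Ier2 to -0.0652 with quantile normalization. In L_IR against Ctrl, 4 members were called with quantile normalization, 4 without L_IR replicate 1 and 4 with Ctrl replicate 1 as the sole control, and Junb ranged up to 0.1594 (without Ctrl replicate 3) and turned to -0.1659 with quantile normalization and -0.0117 without Ctrl replicate 2, Atf3 to 0.0761 with Ctrl replicate 1 as the sole control. With Ctrl replicate 1 as the sole control the spread comes from the other group alone, and the lone library, itself unlike the rest, is assumed to vary like it. The cause of these changes was not tested. Correlations of the deviations of same-numbered libraries from their group means ranged from -0.269 to 0.208. Taken from the means of 3 libraries, such deviations cannot settle whether the numbers pair the libraries. With the replicate block, 8 members passed in IR against Ctrl, 9 each in Ab_IR and L_IR against IR, 7 in Ab_IR against L_IR (Jun, Junb and Egr1 being lost), 5 in L_IR against Ctrl (Ier2 and Zfp36 being lost) and 0 in Ab_IR against Ctrl, and the counts of called members did not change. Unknown depth leaves the precision of low values open.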
